A study of Mus musculus with 20 samples.

Results

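Control mouse kidney cells kept in culture to day 21 were compared with control cells at culture day 7, across all genes. The comparison has 8 of the 20 RNA sequencing libraries of the study: the 4 control libraries of day 21 and the 4 of day 7. They were chosen by their treatment and time labels alone. Of the 47729 genes listed, 18731 had enough counts to be tested.

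All libraries came from kidney cells that had been sorted with magnets for Sca-1 (the surface antigen encoded by Ly6a) and that the labels call mesenchymal stem cell-like. Cultures were kept in a medium for mesenchymal stem cells with foetal calf serum and antibiotics, at 20% O2, 5% CO2 and 37 °C. The other arm of the study received roxadustat, an inhibitor of the prolyl hydroxylases that mark hypoxia-inducible factors for degradation, and serves here only to show where the control change differed (4 libraries at day 21 and 4 at day 7). A single protocol text stands on every library, controls included, and names roxadustat injections of 33 mg/kg for 7 days, so the control arm is known by its treatment label only. The labels used here give no strain, age or sex of the mice, and nothing in them tells if the replicates come from different animals or dishes. The p-values rest on a spread estimated for each gene from all 20 libraries of the study, not from these 8 alone. That spread may in part be technical.

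Kidney tissue holds epithelial tubules, which line up cells joined by cadherins and claudins, and an interstitium of fibroblasts and pericytes, which make collagen and other matrix. When mixed kidney cells are put on plastic with serum, epithelial cells tend to lose their transporters, and stromal cells spread, divide and lay down matrix until the dish is full. Contact between cells then slows division. Bulk RNA shows the sum of all cells in the dish and follows no single lineage.

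Libraries held 13681573 to 17909440 counts at day 21 and 14632777 to 17694626 at day 7. Levels are given in CPM, a gene's counts in 1000000 counts of its library after scaling by the trimmed mean of M values. Means are given ± SD (n = 4), and log2 fold changes ± SE. The biological coefficient of variation, the spread between libraries beyond counting noise, was 9.11% at day 21 and 4.07% at day 7. The day 21 libraries fell into close pairs. Replicates 1 and 2 differed by 2.64% and replicates 3 and 4 by 2.30%, whereas the 4 combinations across these pairs differed by 9.90% to 12.7%. Pairs of day 7 libraries all lay between 3.10% and 4.63%. Within the close pairs 13.1% and 10.3% of genes with a mean of at least 5 CPM differed beyond counting noise. Some genes pass such a cut by counting noise alone, so these shares cannot exclude technical repeats of 1 sample. Total counts were 17658311 and 17909440 for replicates 1 and 2, and 13681573 and 15788600 for replicates 3 and 4. Neither pair was thus 1 table of counts deposited again. All 4 libraries were kept, without evidence that they are independent. The labels do not say what the pairs share. With each pair summed to 1 unit, 12201 genes were called, against 12877 with 4 separate libraries.

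**Figure D1:**
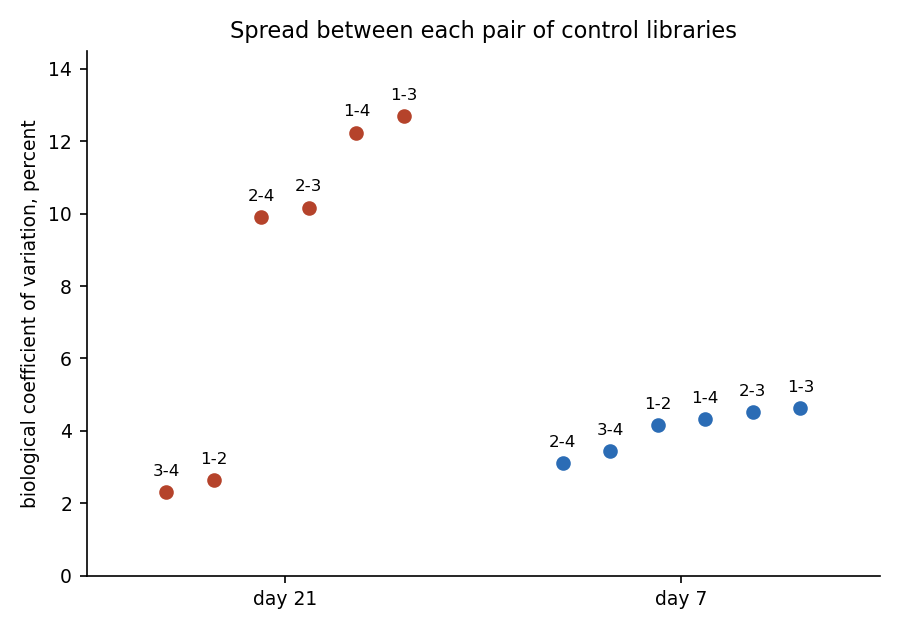
Biological coefficient of variation between each pair of control libraries, in percent, at day 21 (left, red) and day 7 (right, blue), with the replicate numbers above each point. At day 21 the pairs 3-4 and 1-2 lie at 2.30% and 2.64% and the other 4 combinations at 9.90% or above, and all day 7 combinations lie at 4.63% or below.

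A gene was called where the adjusted p of edgeR's quasi-likelihood test, over all genes tested, was under 0.05. At day 21, 6456 genes (34.5%) were higher and 6421 (34.3%) lower than at day 7, and the median log2 fold change of all genes was 0. A change of at least 2-fold was called upward in 3347 genes (17.9%) and downward in 2180 (11.6%), and a change of at least 8-fold in 483 and 437. The libraries of both days did not overlap for 11591 of the 12877 genes called. With so many calls, a list of genes stands apart only where its share or its median lies far from these values, and no list was given a test of its own. Library size alone in place of the trimmed mean gave 5063 genes higher and 8172 lower, a share of 38.3% higher in place of 50.1%, and moved the median of all genes by -0.19. Directions below are relative to the median gene. Some genes stand in more than one list. The libraries keep no strand, so reads of overlapping genes cannot be told apart: genes named below with over 10% of exon bases shared are Epyc (40.6%), Cdkn1c (30.7%), Ccn2 (23.2%), Ovol1 (22%), Spp1 (18.8%), C1s1 (18.4%), Ccne2 (17.4%), Cped1 (13.7%), Fgf2 (13.2%), Cox5a (12.8%), Icam1 (11.7%), Loxl3 (11.6%) and Prc1 (11.1%).

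The label was checked first. Ly6a, the antigen of the sort, had 199, 189, 163 and 161 CPM at day 21, against 172, 166, 158 and 158 CPM at day 7, and the groups overlapped (log2 fold change 0.13 ± 0.06, adjusted p 0.079). Its sign turned with library size alone and without day 21 replicates 1 and 2, and it was called higher under 5 other alternatives. Ly6a averaged 523 CPM in fresh control cells of day 0. In roxadustat cells it averaged 506 CPM at day 21 and 502 CPM at day 7. These means lay well above every control library of day 21 and day 7. Thy1, which encodes the stromal surface protein CD90, had 259, 258, 244 and 239 CPM at day 21, against 80.4, 73.0, 87.3 and 81.6 CPM at day 7, and every day 21 library lay above every day 7 library (log2 1.63 ± 0.08). Nt5e, which encodes the ecto-nucleotidase CD73 and is used with CD90 to define mesenchymal stromal cells, had 14.7, 14.2, 12.8 and 13.6 CPM at day 21, against 338, 356, 334 and 343 CPM at day 7. It fell 24.7-fold, with a wide gap between the groups. Of 17 tested genes listed for mesenchymal stromal cells, 6 rose and 10 fell (median log2 fold change -0.54), with a summed level of 5508 to 5748 CPM at day 21 and 5860 to 6051 CPM at day 7. Epo, the erythropoietin gene for which renal interstitial cells are known, had no count in any day 21 library and 1 count in 1 day 7 library, too few to compare.

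Genes of epithelia fell almost as a block. Of 32 tested genes expressed by epithelia in general, 27 were lower at day 21 and 2 higher (25 lower by at least 2-fold), with a median log2 fold change of -3.07 against 0 for all genes. Cdh16 (ENSMUSG00000031881, chr8:104601911-104624396 in GRCm38) encodes the kidney-specific cadherin of tubule cells. It had 2.89, 3.30, 2.71 and 2.39 CPM at day 21, against 89.6, 85.5, 80.8 and 83.1 CPM at day 7. The groups lay far apart, and the fall was 29.7-fold (log2 -4.89 ± 0.08, adjusted p 2.7e-26). Krt8, a keratin of simple epithelia, had 0.184, 0.36, 0.399 and 0.351 CPM at day 21, against 21.9, 25.7, 21.4 and 23.0 CPM at day 7. Cldn4, a tight junction claudin of the distal nephron, averaged 0.147 ± 0.071 CPM at day 21 and 11.2 ± 0.476 CPM at day 7, a 71.1-fold fall. Prom1, which encodes the membrane protein CD133, averaged 5.24 ± 0.333 CPM at day 21 and 126 ± 3.02 CPM at day 7. Pkhd1, the gene of recessive polycystic kidney disease, fell less far, to 26.9, 26.7, 30.3 and 30.4 CPM at day 21, against 231, 238, 223 and 230.0 CPM at day 7. Spint1, an inhibitor of epithelial membrane proteases, fell by 23.5 times. Esrp2, an epithelial splicing regulator, went the other way by a log2 of 0.32, with overlapping groups. Ovol1, a transcription factor of epithelia, averaged 0.503 ± 0.2 CPM at day 21 and 0.222 ± 0.126 CPM at day 7, also with overlapping groups. Both calls were lost when any 1 of several libraries was left out.

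The summed level of the 32 epithelial genes was 74.8 to 87.3 CPM in day 21 libraries and 681 to 710 CPM in day 7 libraries, against 5650 to 5695 CPM in the fresh control cells of day 0. Of the members, 18 averaged under 1 CPM at day 21 and 9 at day 7, and Marveld3 had no count at day 21. In bulk libraries fewer cells of a type and less RNA per cell cannot be told apart.

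Genes of the proximal tubule, which reabsorbs most of the filtrate, had mostly gone before day 7. Their summed level was 229 to 251 CPM at day 21 and 231 to 238 CPM at day 7, against 72669 to 90759 CPM in fresh cells at day 0. Most of the sum at day 21 came from Ass1, Slc4a4 and Anpep, which averaged 115, 72.5 and 33.1 CPM. These averaged 35.1, 62.8 and 2.48 CPM at day 7, so the like sums hide falls of other members. Of 27 tested proximal tubule genes 13 were lower and 4 higher (median -3.44), and 19 of the 27 averaged under 1 CPM at day 21. Lrp2, which encodes megalin, the uptake receptor of the proximal brush border, had 3.75, 3.30, 5.91 and 3.79 CPM at day 21, against 62.8, 65.8, 61.5 and 64.6 CPM at day 7, a 15.5-fold fall. Cyp4b1, a cytochrome P450, averaged 0.223 ± 0.118 CPM at day 21 and 15.4 ± 1.53 CPM at day 7. Ggt1, the brush border enzyme that degrades glutathione, averaged 0.343 ± 0.097 CPM at day 21 and 7.00 ± 0.81 CPM at day 7. Of the 4 members that rose, Ass1, the urea cycle enzyme argininosuccinate synthase, had 120.2, 126, 109.8 and 104.6 CPM at day 21, against 36.3, 33.4, 35.4 and 35.4 CPM at day 7. Anpep, which encodes the peptidase CD13 and is also made by fibroblasts, had 26.8, 21.9, 40.1 and 43.7 CPM at day 21, against 2.01, 2.68, 2.92 and 2.31 CPM at day 7. Day 21 replicates 3 and 4 lay above replicates 1 and 2 for Anpep. Slc5a12, a lactate transporter, averaged 3.37 ± 1.51 CPM at day 21 and 0.501 ± 0.315 CPM at day 7. Slc4a4, a sodium bicarbonate cotransporter, rose by a log2 of 0.20, a call that some alternatives lost. Hnf4a, the transcription factor that defines proximal cells, and the transporters Slc22a6, Slc22a8 and Slc22a12 had no count at day 21. Of 25 tested genes of the loop, distal tubule and collecting duct, 4 fell and 2 rose, and 18 averaged under 1 CPM at each day. Trpm6, a magnesium channel, fell by 9.98 times and Tfcp2l1, a transcription factor of the collecting duct, by 4.64 times.

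Genes switched on in injured tubules fell as well. Havcr1 (ENSMUSG00000040405, chr11:46735080-46779578) encodes KIM-1, a surface receptor that damaged proximal cells make and that takes up dead cells. It had 10.01, 10.03, 7.67 and 9.34 CPM at day 21, against 801, 841, 773 and 814 CPM at day 7. That was an 86.5-fold fall (log2 -6.44 ± 0.25, adjusted p 1.8e-12). Timd2, from the same receptor family, averaged 0.111 ± 0.1 CPM at day 21 and 10.1 ± 1.27 CPM at day 7. Aldh1a3, which makes retinoic acid, averaged 2.46 ± 0.38 CPM at day 21 and 86.7 ± 6.24 CPM at day 7, and Hkdc1, a hexokinase-like enzyme, 0.209 ± 0.115 CPM at day 21 and 11.2 ± 0.609 CPM at day 7. These 4 are among the 10 largest falls over all genes of at least 10 CPM, with Cldn4, Krt8 and Cyp4b1 from above. Spp1, the secreted phosphoprotein osteopontin, had 780.0, 740.2, 608 and 650.0 CPM at day 21, against 7884, 8386, 7751 and 8257 CPM at day 7. It was among the 10 genes of the highest CPM at day 7 and not at day 21. Clu, the secreted chaperone clusterin, had 4.73, 4.62, 4.23 and 3.86 CPM at day 21, against 43.0, 37.4, 38.7 and 37.5 CPM at day 7. In fresh control cells of day 0, Timd2 and Clu averaged 71.4 and 510 CPM, above their day 7 levels. Havcr1, Aldh1a3, Hkdc1 and Spp1 averaged 10.5, 3.44, 5.79 and 1911.5 CPM there, below their day 7 levels. In all, 17 of 20 tested injury genes fell and 2 rose (median -1.14), and the list's summed level was 7989 to 9374 CPM at day 21 and 19059 to 20167 CPM at day 7. The 2 that rose were leukocyte adhesion molecules made by many cells. Vcam1 averaged 543 ± 26.1 CPM at day 21 and 155 ± 5.72 CPM at day 7. Icam1 averaged 77.2 ± 3.87 CPM at day 21 and 22.3 ± 1.57 CPM at day 7.

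**Figure D2:**
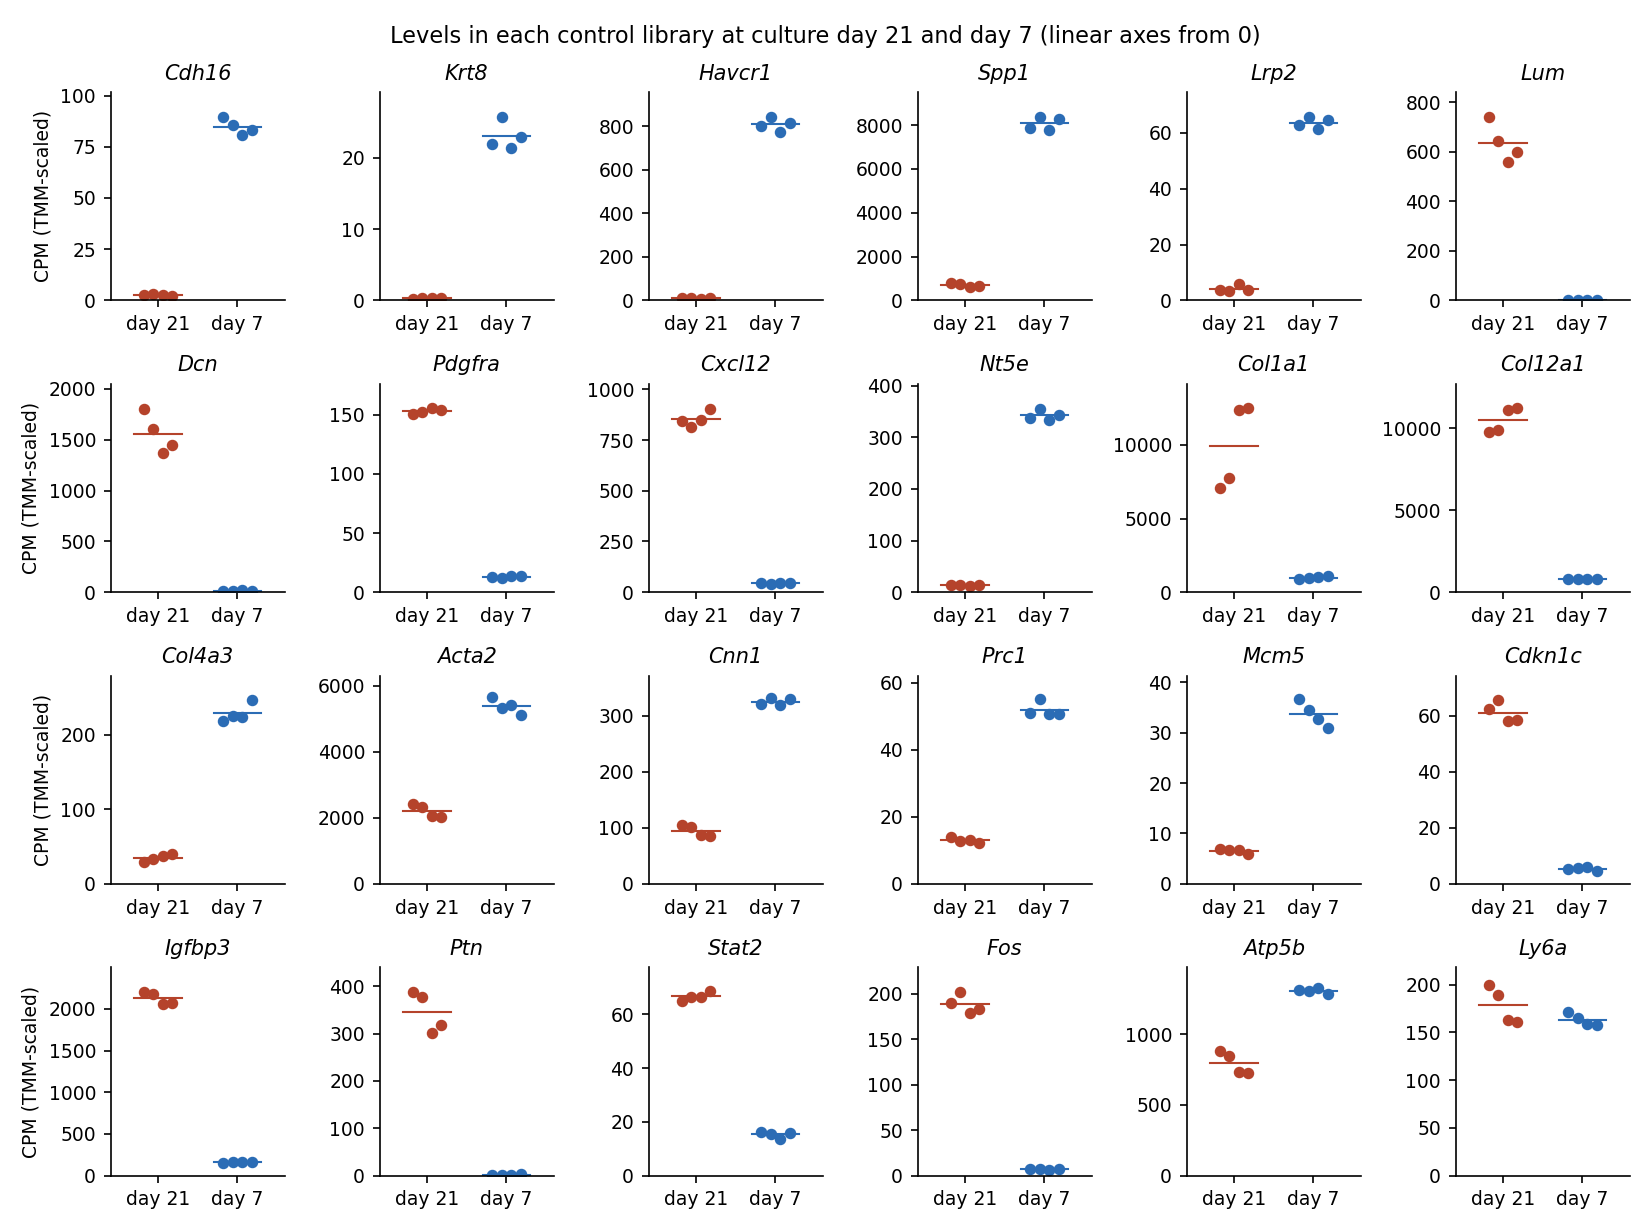
CPM of 24 genes in each control library at day 21 (left, red) and day 7 (right, blue), on linear axes that start at 0, with replicates 1 to 4 from left to right and the group mean as a line. Cdh16, Krt8 and Havcr1 are near 0 at day 21, Lum and Dcn are near 0 at day 7, the groups overlap only for Ly6a, and for Col1a1 day 21 replicates 1 and 2 lie below replicates 3 and 4.

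Fibroblast genes rose. Of 29 tested genes of interstitial fibroblasts 25 were higher and 3 lower, 21 of them higher by at least 2-fold (median 1.63). Their summed level was 60148 to 63018 CPM at day 21 and 18011 to 18653 CPM at day 7. The genes named in this paragraph give a small part of these sums. Lum stands in the list of other matrix proteins as well, and lists of matrix genes, collagens included, may share further members. The rises of fibroblast and matrix lists are thus not independent results. Lum (ENSMUSG00000036446, chr10:97565128-97572703) encodes lumican, a small proteoglycan that spaces collagen fibrils, and had the largest fitted log2 fold change of all genes tested (9.79). It had 740.2, 645, 559 and 599 CPM at day 21, against 0.582, 0.558, 0.811 and 0.859 CPM at day 7. Dcn, its neighbour in function, encodes decorin (chr10:97479609-97518143), and had 1804, 1602, 1372 and 1448 CPM at day 21, against 13.1, 13.9, 20.5 and 16.2 CPM at day 7. Epyc, a further proteoglycan gene of this family on the same strand of chromosome 10 (chr10:97644068-97682454), had 16.9, 15.5, 11.7 and 13.6 CPM at day 21, against 0, 0, 0.054 and 0 CPM at day 7, so 1 count in all at day 7. Lum and Dcn rose 888-fold and 97.4-fold. Pdgfra, the receptor that marks renal interstitial fibroblasts, had 150.5, 152, 156 and 154 CPM at day 21, against 12.6, 11.7, 13.9 and 13.9 CPM at day 7. Pdgfrb, its relative on pericytes and mesangium, was already high and had 701, 705, 786 and 765 CPM at day 21, against 257, 242, 261 and 261 CPM at day 7. The rises were 11.7-fold for Pdgfra and 2.89-fold for Pdgfrb. Cygb, a globin of stellate cells and fibroblasts, averaged 141 ± 6.05 CPM at day 21 and 27.6 ± 3.71 CPM at day 7. Against the list went Nt5e, described above, and Cd34, which averaged 2.97 ± 0.143 CPM at day 21 and 12.8 ± 0.534 CPM at day 7. Tcf21, a stromal transcription factor, was also called lower, with no count at day 21 and 6 counts in all at day 7, and the call was lost without either close pair of day 21 libraries.

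Cxcl12, the chemokine by which stroma holds haematopoietic cells, had 843, 817, 851 and 906 CPM at day 21, against 44.8, 41.5, 43.7 and 46.1 CPM at day 7, a 19.4-fold rise (log2 4.28 ± 0.10). Prrx1, a homeobox factor of mesenchyme, had 532, 541, 625 and 634 CPM at day 21, against 103, 102, 104 and 110.0 CPM at day 7. Itga11, the collagen-binding integrin chain of fibroblasts, averaged 285 ± 19.4 CPM at day 21 and 53.8 ± 3.35 CPM at day 7. Eng, an accessory receptor for TGF-beta, averaged 48.6 ± 10.3 CPM at day 21 and 16.3 ± 1.01 CPM at day 7. Of 46 tested transcription factors of renal stroma and mesenchyme 30 rose and 11 fell (median 0.63). Klf4, a zinc finger factor of quiescent cells, averaged 81.1 ± 8.25 CPM at day 21 and 14.6 ± 0.381 CPM at day 7. Foxp2, a forkhead factor, averaged 54.3 ± 6.10 CPM at day 21 and 7.78 ± 0.68 CPM at day 7. Among those that fell Scx, the tendon factor scleraxis, averaged 3.76 ± 0.465 CPM at day 21 and 25.6 ± 1.72 CPM at day 7. Lhx9 averaged 0.742 ± 0.13 CPM at day 21 and 4.77 ± 0.251 CPM at day 7, and Foxd1, which marks the embryonic precursors of renal stroma, 1.87 ± 0.261 CPM at day 21 and 3.47 ± 0.362 CPM at day 7.

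Smooth muscle and pericyte genes split. Of 20 tested, 10 fell and 6 rose (median -0.38). Acta2, the smooth muscle actin that marks myofibroblasts, had 2415, 2336, 2067 and 2033 CPM at day 21, against 5643, 5338, 5428 and 5122 CPM at day 7. Cnn1, which encodes the actin-binding protein calponin, had 104.7, 102, 86.9 and 85.1 CPM at day 21, against 321, 331, 319.5 and 329 CPM at day 7. Both fell, by 2.43 and 3.43 times. Mcam, which encodes the adhesion molecule CD146, fell by 3.84 times. The genes that rose include signalling genes: Gucy1a1, a subunit of the nitric oxide receptor, averaged 85.4 ± 0.502 CPM at day 21 and 15.8 ± 1.46 CPM at day 7. Notch3, the Notch receptor of mural cells, averaged 70.8 ± 14.9 CPM at day 21 and 12.2 ± 0.882 CPM at day 7. Myh11, the smooth muscle myosin heavy chain, was also higher, at 124 ± 8.69 CPM at day 21 and 83.4 ± 5.37 CPM at day 7. Vim and Actb, cytoskeletal genes of cultured cells in general, had log2 fold changes of -0.58 and -0.74.

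Collagen genes rose. Of 35 tested chains 23 were higher and 4 lower, 20 of them higher by at least 2-fold (median 1.53). The summed level of the chains was 83481 to 89163 CPM at day 21 and 22363 to 23164 CPM at day 7. Col1a1 (chr11:94936224-94953042), one chain of the main fibrillar collagen of connective tissue, had 7099, 7782, 12342 and 12482 CPM at day 21, against 899.7, 960.5, 1021 and 1075 CPM at day 7. All day 21 libraries lay above all day 7 libraries, yet replicates 3 and 4 stood well above 1 and 2. The SE of the log2 fold change was wide (3.33 ± 0.30). It also carries the spread of other groups in the fit, such as 914 ± 288 CPM in roxadustat cells at day 21. The partner chain Col1a2 showed no such gap between day 21 replicates, with 16737, 17097, 17352 and 17857 CPM at day 21, against 4065, 3938, 3948 and 4084 CPM at day 7. Col12a1, a collagen that binds the surface of fibrils, had 9759, 9884, 11120 and 11211 CPM at day 21, against 781, 789.8, 790.2 and 817 CPM at day 7, and this 13.2-fold rise had the smallest p among the chains (adjusted p 9.7e-25). Col3a1, the companion fibrillar collagen of soft tissues, averaged 17855 ± 1738 CPM at day 21 and 5418 ± 206 CPM at day 7. Col8a1, a short network chain, averaged 3986 ± 164 CPM at day 21 and 773 ± 14.2 CPM at day 7. Network collagens of basement membranes did not move together. Col4a1, found in nearly all basement membranes, rose 2.14-fold. Col4a3 and Col4a4, chains of the mature glomerular and tubular membrane, fell. Col4a3 had 29.6, 33.8, 37.5 and 39.4 CPM at day 21, against 218, 225, 223 and 247 CPM at day 7. Col4a4 averaged 28.1 ± 4.83 CPM at day 21 and 165 ± 9.33 CPM at day 7. The other chains that fell were Col18a1 and Col5a3, with log2 fold changes of -0.80 and -1.37.

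Of 44 tested matrix proteins other than collagens, 36 rose and 6 fell, 29 of them by at least 2-fold upward (median 1.86). Ccn3, a matricellular protein, had 947, 937, 866 and 889.7 CPM at day 21, against 24.9, 26.7, 29.6 and 27.7 CPM at day 7. Efemp1, Fbln5 and Prelp, an extracellular glycoprotein, an elastic fibre protein and a small leucine-rich repeat protein, rose by 10.6, 4.87 and 294 times. Tnxb, the tenascin of mature connective tissue, had 66.4, 75.0, 119 and 111 CPM at day 21, against 0.971, 1.06, 0.703 and 0.805 CPM at day 7. As for Col1a1, day 21 replicates 3 and 4 were the higher ones. Fn1, the fibronectin gene, averaged 10438 ± 2235 CPM at day 21 and 4422 ± 398 CPM at day 7 and had the same order among day 21 libraries. Among the 6 that fell, Ccn2, known as connective tissue growth factor, had 773, 795, 749 and 767 CPM at day 21, against 1918, 1839.9, 1735 and 1834 CPM at day 7. Tnc, the tenascin of healing wounds, averaged 1803 ± 59.3 CPM at day 21 and 3497 ± 106 CPM at day 7. Has2, a hyaluronan synthase, averaged 19.5 ± 1.10 CPM at day 21 and 68.5 ± 1.63 CPM at day 7.

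Enzymes that finish collagen outside and inside the cell rose by less. Of 28 tested 18 were higher and 2 lower (median 0.37), and 13 and 9 with library size alone. Adamts2, which trims the amino end of procollagen, had 809, 850.0, 918 and 906 CPM at day 21, against 108, 109.6, 107 and 112 CPM at day 7. Lox, the oxidase that starts collagen crosslinks, averaged 3643 ± 148 CPM at day 21 and 806 ± 17.7 CPM at day 7. P3h3, a collagen prolyl hydroxylase, averaged 142 ± 1.91 CPM at day 21 and 56.1 ± 1.70 CPM at day 7. Pcolce2, an enhancer of procollagen trimming, and Loxl3, a lysyl oxidase, fell, with log2 fold changes of -1.39 and -0.35. Proteases and their inhibitors split into 16 that rose and 11 that fell of 30 tested. Adamts5, which cleaves large proteoglycans, averaged 1152 ± 85.2 CPM at day 21 and 187 ± 9.04 CPM at day 7. Reck, a membrane inhibitor of matrix metalloproteinases, averaged 63.0 ± 4.36 CPM at day 21 and 8.91 ± 0.318 CPM at day 7. Genes of the plasminogen system were among those that fell. Plaur, the urokinase receptor, had 16.6, 15.2, 12.7 and 15.6 CPM at day 21, against 68.2, 64.0, 64.3 and 62.3 CPM at day 7. The activators Plau and Plat also fell, with log2 fold changes of -0.74 and -1.25. Timp1, an inhibitor of metalloproteinases, had a log2 fold change of -0.76 ± 0.13.

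Of 42 tested adhesion receptors, laminins and cadherins 23 fell and 14 rose (median -0.37). Itga3 and Itga6, laminin receptor chains of epithelia, fell. Itga3 had 22.7, 26.7, 31.6 and 28.0 CPM at day 21, against 358, 367, 347 and 365 CPM at day 7. Itga6 averaged 21.6 ± 1.66 CPM at day 21 and 101 ± 3.86 CPM at day 7. Cdh6, a cadherin of the developing proximal tubule, averaged 48.8 ± 4.80 CPM at day 21 and 318 ± 14.2 CPM at day 7. The laminin chain Lama2 rose and averaged 482 ± 25.2 CPM at day 21 and 57.1 ± 3.87 CPM at day 7. Its fellow chain Lamb2 averaged 497 ± 7.15 CPM at day 21 and 178 ± 1.59 CPM at day 7.

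**Figure D3:**
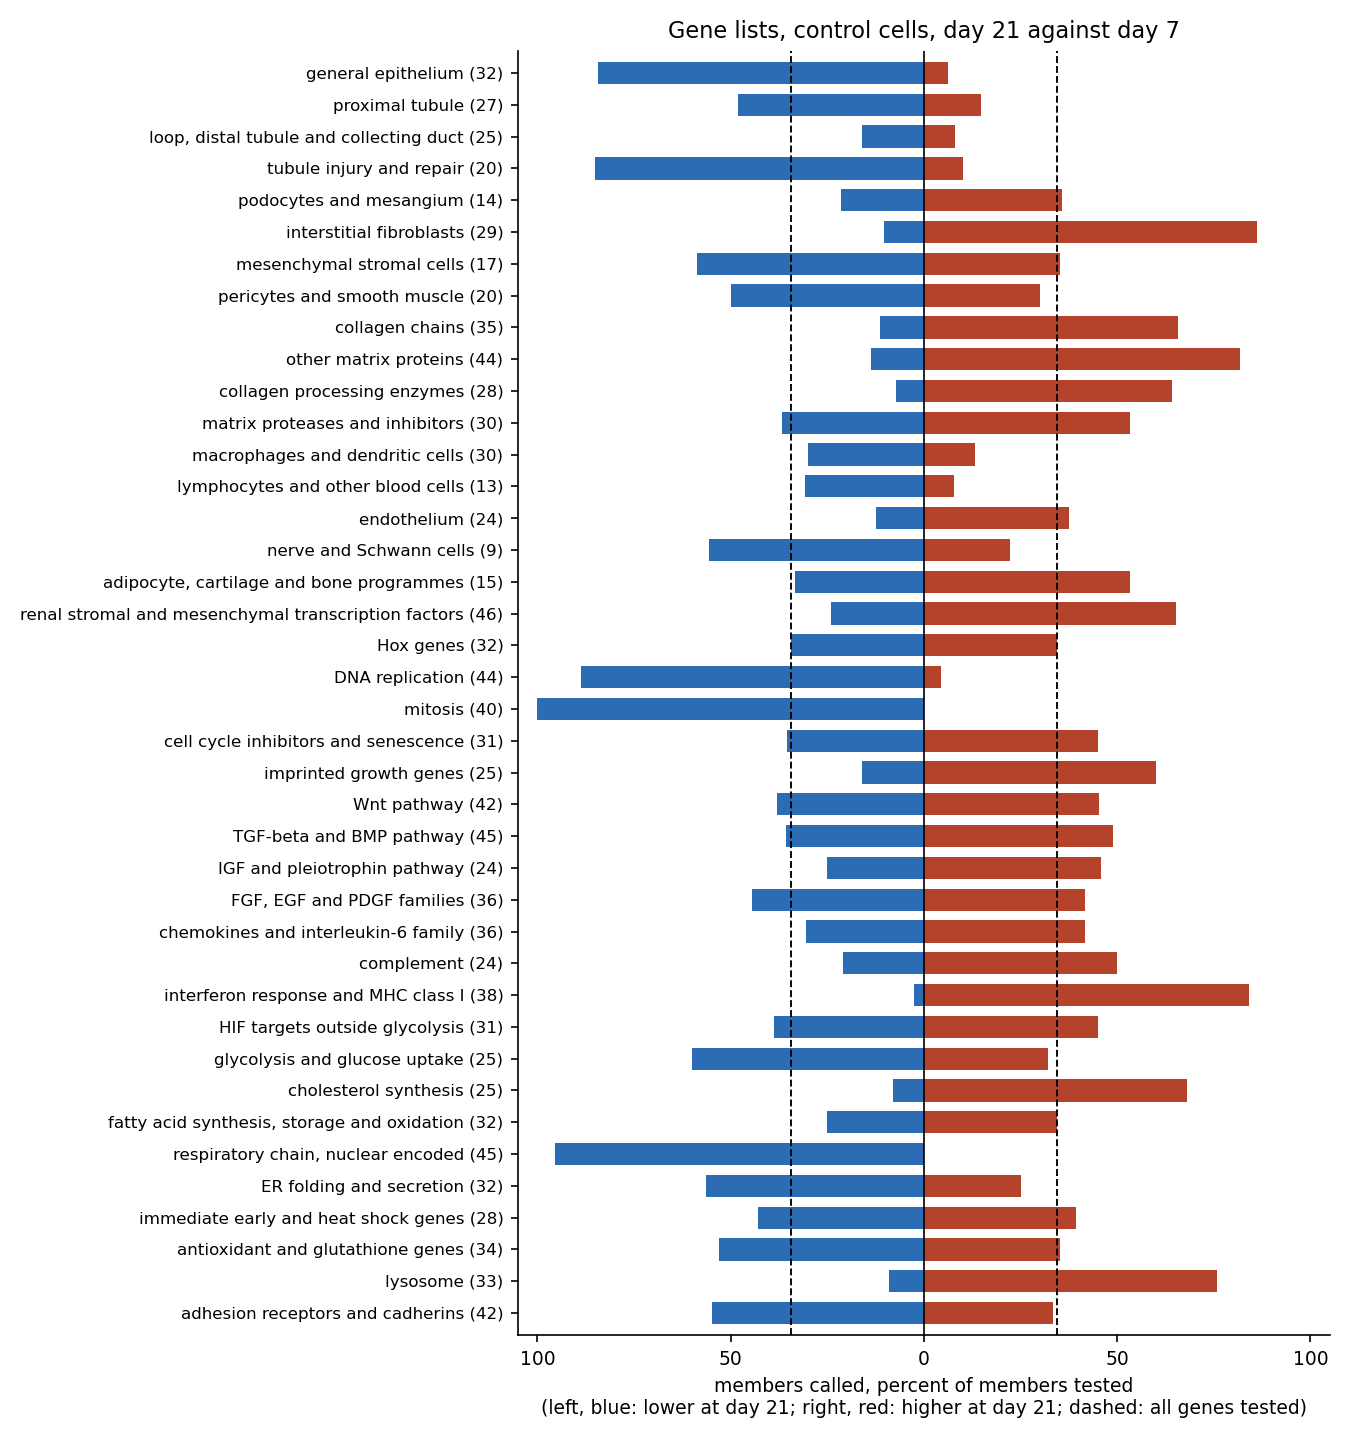
Share of the tested members of each of 40 gene lists (number tested in brackets) that were called lower (left, blue) or higher (right, red) at day 21 than at day 7, in percent. Dashed lines give the shares over all genes tested, 34.3% lower and 34.5% higher. The longest bars to the left are mitosis (40 of 40), nuclear respiratory chain (43 of 45) and DNA replication (39 of 44), and those to the right interstitial fibroblasts (25 of 29) and interferon response (32 of 38).

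Genes of cell division fell. All 40 tested mitosis genes were lower, 39 of them by at least 2-fold, with a median log2 fold change of -2.12. Their summed level was 373 to 392 CPM at day 21 and 1517 to 1547 CPM at day 7. Anln, which encodes the ring protein anillin, had 33.5, 33.9, 34.3 and 33.0 CPM at day 21, against 156, 156, 153 and 158 CPM at day 7. Prc1, which bundles the microtubules of the spindle midzone, had 13.9, 12.9, 13.0 and 12.2 CPM at day 21, against 51.1, 55.3, 50.7 and 50.7 CPM at day 7. Kif23 and Ect2, which place the cleavage furrow, fell as well. Kif23 averaged 5.06 ± 0.879 CPM at day 21 and 32.2 ± 0.191 CPM at day 7. Ect2 averaged 8.34 ± 0.855 CPM at day 21 and 39.1 ± 1.87 CPM at day 7.

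Promoters of mitosis genes often carry a cell cycle homology region, with the core letters TTTGAA, through which these genes are kept silent in resting cells. Among RefSeq promoters (GRCm38.p6, the 250 bases before a start, either strand), TTTGAA stood in 11 of 33 mitosis genes tested and listed there (33.3%) and in 13.5% of all 12402 tested genes listed. CCAAT, the box found beside it, stood in 24 of the 33 (72.7%) and in 39.2% of all. The 2 mitosis genes of the smallest p that hold TTTGAA are shown with it in capitals, because the group holds these letters more often than all genes do.
Prc1 promoter: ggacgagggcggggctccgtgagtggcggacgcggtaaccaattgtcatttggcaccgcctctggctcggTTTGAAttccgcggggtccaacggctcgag
Ect2 promoter: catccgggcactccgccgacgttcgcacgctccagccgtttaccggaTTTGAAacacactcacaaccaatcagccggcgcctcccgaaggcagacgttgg
These stretches of 100 bases run from 5′ to 3′ along the gene, at chr7:80294376-80294475 (+ strand) for Prc1 and chr3:27153940-27154039 (- strand) for Ect2. A match is a description of letters, not a site shown to act, and the shares do not bear on the change between the days. The falls of these genes, given above, were 3.99-fold for Prc1 and 4.67-fold for Ect2.

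Replication genes fell less far. Of 44 tested 39 were lower and 2 higher (median -1.07), with 26 lower by at least 2-fold. Mcm6 and Mcm5, parts of the replicative helicase, fell. Mcm6 averaged 25.8 ± 1.18 CPM at day 21 and 78.5 ± 1.96 CPM at day 7. Mcm5 averaged 6.59 ± 0.417 CPM at day 21 and 33.7 ± 2.44 CPM at day 7. Ccne2, the cyclin that starts S phase, averaged 5.06 ± 0.432 CPM at day 21 and 19.9 ± 1.32 CPM at day 7. Rrm1, the large subunit of ribonucleotide reductase, was higher, with 382, 352, 325 and 326 CPM at day 21, against 256, 263, 264 and 267 CPM at day 7. E2f1, a factor that drives S phase genes, was higher by a log2 of 0.52 ± 0.11. Brakes on the cycle did not rise together: of 31 tested inhibitors and senescence genes 14 rose and 11 fell, and 12 and 16 with library size alone. Cdkn1c, the imprinted inhibitor p57, had 62.5, 65.7, 58.1 and 58.7 CPM at day 21, against 5.44, 5.52, 5.95 and 4.78 CPM at day 7. Cdkn2b, the inhibitor p15, had a log2 fold change of -0.56. Lmnb1, a lamin whose loss accompanies senescence, averaged 7.88 ± 0.922 CPM at day 21 and 33.8 ± 1.22 CPM at day 7. The chromatin proteins Hmga1 and Hmga2, high in growing cells, fell by 5.29 and 2.21 times. Gdf15, a secreted stress signal often raised in senescent cells, fell, to 16.5, 17.8, 14.6 and 16.2 CPM at day 21, against 64.0, 60.5, 58.2 and 55.6 CPM at day 7.

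Within growth factor systems members went both ways, as genes did over all those tested (34.5% higher and 34.3% lower). A split near these shares does not set a list apart, here or in the other lists. In the insulin-like growth factor list 11 of 24 rose and 6 fell. Igfbp3, a carrier that holds these factors in serum and matrix, had 2204, 2176, 2062 and 2076 CPM at day 21, against 157, 158, 167 and 167 CPM at day 7, a 13.1-fold rise. Pappa, a protease that frees the factors from carriers, averaged 365 ± 30.1 CPM at day 21 and 151 ± 3.62 CPM at day 7. Stc2, which blocks that protease, fell and averaged 3.52 ± 0.376 CPM at day 21 and 16.3 ± 0.882 CPM at day 7. Ptn, the heparin-binding growth factor pleiotrophin, had 387, 377, 301 and 319 CPM at day 21, against 1.75, 2.29, 2.43 and 2.74 CPM at day 7. Igfbp5, another carrier, fell and averaged 9.07 ± 1.65 CPM at day 21 and 21.4 ± 2.44 CPM at day 7.

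Of 36 tested genes of the FGF, EGF and PDGF families 16 fell and 15 rose. Met, the receptor of hepatocyte growth factor, had 35.3, 35.8, 40.8 and 39.3 CPM at day 21, against 193, 194, 186 and 189 CPM at day 7. Its ligand Hgf, made by stroma, rose, with 19.04, 17.9, 16.4 and 17.98 CPM at day 21, against 0.971, 0.892, 1.082 and 0.859 CPM at day 7. Erbb4, an EGF family receptor, fell and averaged 1.97 ± 0.208 CPM at day 21 and 39.6 ± 1.73 CPM at day 7. Hbegf, an EGF family ligand, averaged 17.8 ± 0.794 CPM at day 21 and 159 ± 3.44 CPM at day 7. Ligands that rose include Vegfd, a lymphatic growth factor, which averaged 126 ± 12.8 CPM at day 21 and 4.82 ± 0.485 CPM at day 7. Fgf2 averaged 304 ± 13.5 CPM at day 21 and 87.4 ± 4.46 CPM at day 7. Fgf7, which acts on epithelia, averaged 29.2 ± 1.21 CPM at day 21 and 10.4 ± 1.77 CPM at day 7.

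In the Wnt list 19 of 42 rose and 16 fell, and 17 and 18 with library size alone. Sfrp1, a secreted Wnt antagonist, had 269, 270.2, 269 and 294 CPM at day 21, against 4.27, 4.79, 5.57 and 4.08 CPM at day 7. Ror1, a receptor for Wnt5a, averaged 94.9 ± 7.41 CPM at day 21 and 14.4 ± 0.931 CPM at day 7. Several ligands fell. Wnt5a, which acts outside the beta-catenin branch, had 21.6, 19.5, 23.2 and 20.0 CPM at day 21, against 93.0, 96.0, 89.4 and 94.7 CPM at day 7. Wnt7b, a ligand of the collecting duct, averaged 0.873 ± 0.309 CPM at day 21 and 23.7 ± 2.07 CPM at day 7. Wnt2 averaged 5.32 ± 0.516 CPM at day 21 and 16.6 ± 0.386 CPM at day 7. Axin2, a general target of the beta-catenin branch, fell by 3.89 times.

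In the TGF-beta and BMP list 22 of 45 rose and 16 fell. Inhbb, a subunit of activin B, had 341, 350.4, 357 and 358 CPM at day 21, against 54.3, 57.4, 56.3 and 55.3 CPM at day 7. Tgfbr3, the coreceptor betaglycan, averaged 172 ± 15.5 CPM at day 21 and 21.4 ± 1.28 CPM at day 7. Ltbp1, which stores latent TGF-beta in matrix, averaged 273 ± 2.36 CPM at day 21 and 66.0 ± 2.79 CPM at day 7. Inhba, the subunit of activin A, fell and averaged 43.2 ± 2.27 CPM at day 21 and 141 ± 12.5 CPM at day 7. Bmp4, a BMP ligand, averaged 21.4 ± 0.24 CPM at day 21 and 45.8 ± 2.53 CPM at day 7. Id2, a target of BMP signals, averaged 11.9 ± 1.31 CPM at day 21 and 45.5 ± 3.89 CPM at day 7.

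Of 36 tested chemokines and members of the interleukin-6 family with their receptors, 15 rose and 11 fell. Lifr, the receptor of leukaemia inhibitory factor, had 234, 232, 260.1 and 269 CPM at day 21, against 23.6, 23.8, 23.0 and 24.3 CPM at day 7, a 10.5-fold rise (log2 3.39 ± 0.06, adjusted p 1.2e-25). Osmr, the receptor of oncostatin M, averaged 439.9 ± 13.4 CPM at day 21 and 112 ± 1.49 CPM at day 7. Ackr3, which scavenges the chemokine CXCL12, averaged 28.6 ± 2.37 CPM at day 21 and 2.57 ± 0.421 CPM at day 7. Il11, a cytokine of fibrotic stroma, fell and averaged 1.14 ± 0.479 CPM at day 21 and 6.16 ± 0.185 CPM at day 7. Ccl6, a chemokine made by macrophages, averaged 11.7 ± 1.42 CPM at day 21 and 78.6 ± 4.26 CPM at day 7. Complement genes rose in 12 and fell in 5 of 24. C1s1, a protease of the classical pathway, had 139, 132, 116 and 120.5 CPM at day 21, against 4.92, 5.63, 4.76 and 4.94 CPM at day 7. Serping1, its inhibitor, averaged 80.6 ± 10.02 CPM at day 21 and 8.61 ± 0.409 CPM at day 7.

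Of 38 tested interferon response and MHC class I genes, 32 rose and 1 fell, 19 of the rises being at least 2-fold (median 1.00, 0 for all genes). Stat2, part of the complex that type I interferon assembles, had 64.8, 66.6, 66.4 and 68.8 CPM at day 21, against 16.3, 15.4, 13.7 and 15.9 CPM at day 7. Irf9, the DNA-binding part of the same complex, had 50.6, 49.1, 44.0 and 44.5 CPM at day 21, against 23.9, 24.0, 21.7 and 22.5 CPM at day 7. Ifit3, an antiviral target, had 28.5, 26.0, 21.7 and 23.0 CPM at day 21, against 4.98, 4.68, 3.57 and 3.65 CPM at day 7. Its reads are uncertain, since a near-identical copy, Ifit3b, lies beside it. Oasl2, of the oligoadenylate synthase family, averaged 21.1 ± 0.427 CPM at day 21 and 4.19 ± 0.822 CPM at day 7. Isg15, a ubiquitin-like modifier, averaged 13.4 ± 1.10 CPM at day 21 and 2.44 ± 0.362 CPM at day 7. The gene that fell was H2-K1, a class I heavy chain with close paralogs, with 52.1, 51.0, 39.7 and 39.5 CPM at day 21, against 67.9, 74.0, 70.6 and 70.6 CPM at day 7.

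The complex that holds STAT2 and IRF9 reads a response element that was searched here as GAAA, any 2 bases and GAAA again, on either strand. It stood in 10 of 28 listed promoters of the interferon genes (35.7%) and in 3.14% of those of all tested genes. The list was made of interferon response genes, called or not, so this share does not bear on the change from day 7 to day 21. The 3 members of the smallest p that hold it are shown with it in capitals, because the list held these letters far more often than all genes did. On the other strand they read TTTC, any 2 bases and TTTC.
Stat2 promoter: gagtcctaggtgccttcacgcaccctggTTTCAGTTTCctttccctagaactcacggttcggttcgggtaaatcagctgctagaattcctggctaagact
Ifit3 promoter: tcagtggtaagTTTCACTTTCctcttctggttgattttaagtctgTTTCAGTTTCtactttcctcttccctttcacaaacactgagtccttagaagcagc
Isg15 promoter: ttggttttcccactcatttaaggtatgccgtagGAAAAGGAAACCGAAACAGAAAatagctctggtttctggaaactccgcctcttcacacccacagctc
The stretches of 100 bases lie at chr10:128270248-128270347 (+ strand) for Stat2, chr19:34583362-34583461 (+ strand) for Ifit3 and chr4:156200830-156200929 (- strand) for Isg15. Ifit3 holds 2 matches and Isg15 3 that overlap each other. Genes with no match in this window include Irf9 and Oasl2, which rose as well.

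Lists of other cell types were looked at next. Macrophage genes gave 4 higher and 9 lower of 30 tested, with H2-Ab1 and H2-Aa without a count at day 21. Their summed level was 368 to 426 CPM at day 21 and 507 to 521 CPM at day 7. In fresh control cells of day 0 it was 360 to 434 CPM, so the day 21 sum was like that of fresh cells. Clec7a, Cd14 and Adgre1, given next, make up a small part of these sums in culture. Clec7a, the beta-glucan receptor of myeloid cells, had 7.31, 9.42, 9.90 and 7.59 CPM at day 21, against 61.6, 63.1, 59.6 and 60.9 CPM at day 7. Cd14, a coreceptor for bacterial lipopolysaccharide, averaged 4.56 ± 0.64 CPM at day 21 and 18.1 ± 0.987 CPM at day 7. Adgre1, which encodes the macrophage antigen F4/80, was higher, with 12.1, 11.3, 10.2 and 12.3 CPM at day 21, against 6.66, 5.80, 6.76 and 7.19 CPM at day 7. Lymphocyte and blood genes summed to 2.00 to 3.06 CPM at day 21 and 8.80 to 11.1 CPM at day 7. Of 24 tested endothelial genes 9 rose and 3 fell, against 34.5% higher and 34.3% lower over all genes tested. Their summed level was 374 to 416 CPM at day 21 and 138 to 145 CPM at day 7. Fresh control cells of day 0 had 410 to 459 CPM of this list. Flt1, a VEGF receptor also found on pericytes, gave most of the sum at day 21, with 248, 246, 262 and 272 CPM at day 21, against 65.3, 66.2, 65.7 and 71.0 CPM at day 7. Members with no count at day 21 were Sox17, Sox18, Robo4, Cldn5 and Mmrn1. At day 7 Robo4 and Mmrn1 had none either, and the other three had 3 counts or fewer in all 4 libraries together. Whether these cells had a part in the interferon or complement genes was not tested.

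Several immediate early genes rose, while the list as a whole split. Fos, the transcription factor made within minutes of a stimulus, had 189, 202, 179 and 183 CPM at day 21, against 6.79, 6.80, 6.55 and 6.98 CPM at day 7, a 27.8-fold rise. Fosb, its close relative, had 61.2, 69.0, 70.6 and 76.0 CPM at day 21, against 0.776, 0.502, 0.379 and 0.644 CPM at day 7. Nr4a1, a nuclear receptor induced in the same way, averaged 37.2 ± 3.92 CPM at day 21 and 1.41 ± 0.301 CPM at day 7. Zfp36, which destabilises messenger RNA, averaged 58.9 ± 4.76 CPM at day 21 and 9.93 ± 0.754 CPM at day 7. Egr1, a zinc finger factor, averaged 84.7 ± 20.6 CPM at day 21 and 16.5 ± 2.40 CPM at day 7. Over the whole list, heat shock genes included, 11 of 28 rose and 12 fell. Dusp6, a phosphatase that the ERK pathway induces, fell, with 48.1, 45.7, 45.8 and 43.1 CPM at day 21, against 192, 209, 199 and 199.9 CPM at day 7. In roxadustat cells 19 of the 28 rose and 2 fell, and the change differed between the arms for 22, lower in control for 18 of them and higher for 4. Over all 18731 genes tested, 5362 rose and 6164 fell in roxadustat cells. The change differed for 8382 of all genes (44.7%), lower in control for 3919 and higher for 4463. Fos averaged 161 ± 5.21 CPM at day 21 and 6.07 ± 0.647 CPM at day 7 in roxadustat cells, and its change differed by a log2 of 0.07 (adjusted p 0.61), which does not show that the arms act alike. The difference was 1.82 ± 0.23 for Nr4a1, 0.95 ± 0.14 for Zfp36, -0.66 ± 0.24 for Egr1 (adjusted p 0.039) and -2.77 ± 0.08 for Dusp6.

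Of 45 tested nuclear genes of the respiratory chain, which makes most of a cell's ATP, 43 fell and none rose, yet none by 2-fold, and the median was -0.44. Atp5b, the catalytic subunit of ATP synthase, had 881, 848, 731 and 727 CPM at day 21, against 1309.8, 1309, 1330.2 and 1283 CPM at day 7. Cox5a, a subunit of cytochrome oxidase, averaged 25.3 ± 4.05 CPM at day 21 and 45.2 ± 2.11 CPM at day 7. Uqcrfs1, the Rieske subunit of complex III, averaged 54.7 ± 6.04 CPM at day 21 and 90.1 ± 3.08 CPM at day 7. Glycolysis genes fell in 15 and rose in 8 of 25 (median -0.44). Ldhb, a lactate dehydrogenase chain, had 11.8, 10.6, 10.5 and 11.5 CPM at day 21, against 50.5, 49.8, 55.2 and 54.5 CPM at day 7. Eno1, the general enolase, averaged 58.1 ± 3.84 CPM at day 21 and 130.2 ± 9.53 CPM at day 7. Eno2, the isoform of neurons, rose and averaged 56.2 ± 3.76 CPM at day 21 and 15.9 ± 0.849 CPM at day 7. Targets of hypoxia-inducible factors outside glycolysis gave 14 higher and 12 lower of 31, and 7 and 13 with library size alone. Genes of fatty acids gave 11 higher and 8 lower of 32, and 8 and 14 with library size alone. The shares over all genes tested were 34.5% higher and 34.3% lower, so neither of these lists stands apart. Folding genes of the endoplasmic reticulum fell in 18 and rose in 8 of 32 (median -0.25), and antioxidant genes fell in 18 and rose in 12 of 34 (median -0.23).

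Lysosome and cholesterol genes mostly rose. Of 33 tested lysosome genes 25 rose and 3 fell (median 0.50), 7 of them by at least 2-fold. Man2b1, a lysosomal mannosidase, averaged 358 ± 8.37 CPM at day 21 and 123 ± 5.17 CPM at day 7. Scarb2, a membrane protein of the organelle, averaged 926 ± 58.2 CPM at day 21 and 347 ± 9.27 CPM at day 7. Of 25 cholesterol genes 17 rose and 2 fell (median 0.64). Insig1, which holds back sterol synthesis in the endoplasmic reticulum, averaged 153 ± 16.2 CPM at day 21 and 54.7 ± 1.32 CPM at day 7. CCAAT stood in 16 of 17 listed promoters of this group (94.1%), against the 39.2% of all. Plin2, the coat protein of lipid droplets, had 146, 140.1, 119 and 121 CPM at day 21, against 516, 519, 523 and 514 CPM at day 7. Cd36, a fatty acid receptor, averaged 10.8 ± 1.45 CPM at day 21 and 54.5 ± 2.42 CPM at day 7. Tfrc, the transferrin receptor of growing cells, had 19.9, 19.3, 17.8 and 18.6 CPM at day 21, against 118, 119.7, 116 and 118 CPM at day 7.

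Further large rises lay outside these groups. Fmo2, a flavin monooxygenase, had 1326, 1237, 1213 and 1226 CPM at day 21, against 9.71, 10.3, 9.03 and 8.11 CPM at day 7, and its p was the smallest of all genes (adjusted p 3.7e-30). Fmo1, from the same family, had 82.2, 79.8, 74.7 and 84.3 CPM at day 21, against 0.388, 0.669, 0.162 and 0.537 CPM at day 7. Ace, which encodes angiotensin-converting enzyme, averaged 15.7 ± 2.23 CPM at day 21 and 0.119 ± 0.106 CPM at day 7. In fresh control cells of day 0, Fmo2, Fmo1 and Ace averaged 408, 505 and 209 CPM. At day 21 Fmo1 and Ace thus lay far below their fresh level, and Fmo2 above it. Fabp4, a fatty acid binding protein of adipocytes, averaged 35.4 ± 3.92 CPM at day 21 and 1.52 ± 0.118 CPM at day 7. Genes of the fat, cartilage and bone programmes gave 8 higher and 5 lower of 15. Podocyte and mesangial genes gave 5 higher and 3 lower of 14, and nerve and Schwann cell genes 2 higher and 5 lower of 9. Among position genes, Hox genes gave 11 higher and 11 lower of 32, near the shares over all genes tested (34.5% and 34.3%). Hoxc8 averaged 60.6 ± 3.99 CPM at day 21 and 16.2 ± 0.684 CPM at day 7. Hoxb9 averaged 15.97 ± 1.34 CPM at day 21 and 54.0 ± 1.62 CPM at day 7. Of 25 tested imprinted growth genes 15 rose and 4 fell (median 0.69). Grb10, which restrains the insulin receptor, averaged 859 ± 26.2 CPM at day 21 and 462 ± 7.87 CPM at day 7. Meg3, a long noncoding RNA, averaged 14.8 ± 2.80 CPM at day 21 and 2.24 ± 0.106 CPM at day 7. Peg3, a zinc finger gene, fell and averaged 66.8 ± 4.41 CPM at day 21 and 143 ± 5.40 CPM at day 7.

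The control change was then set against the same interval in roxadustat cells, by testing the difference of the changes in the same fit. It differed for 8382 genes (44.7%), 4463 with the higher change in control and 3919 with the lower. With library size alone these were 2501 and 6504, and the median difference over all genes was -0.26 in place of 0.02. In roxadustat cells 5362 genes rose and 6164 fell between day 7 and day 21. The genes of the smallest p of at least 10 CPM were Cemip, Cped1, Spns2, Igfbp3 and Slc6a18. Cemip, which degrades hyaluronan, averaged 194 ± 9.37 CPM at day 21 and 16.03 ± 1.43 CPM at day 7 in control cells, and 14.3 ± 1.06 CPM at day 21 and 63.5 ± 3.72 CPM at day 7 in roxadustat cells (difference of log2 changes 5.76 ± 0.10, adjusted p 2.4e-25). Cped1 averaged 403 ± 17.5 CPM at day 21 and 13.7 ± 0.738 CPM at day 7 in control cells, and 13.7 ± 0.986 CPM at day 21 and 21.5 ± 1.59 CPM at day 7 in roxadustat cells. Spns2, an exporter of sphingosine-1-phosphate, averaged 16.6 ± 0.517 CPM at day 21 and 204 ± 11.9 CPM at day 7 in control cells, and 665 ± 25.3 CPM at day 21 and 499.9 ± 19.8 CPM at day 7 in roxadustat cells. Slc6a18, an amino acid transporter of the proximal brush border, averaged 1.14 ± 0.258 CPM at day 21 and 53.2 ± 3.10 CPM at day 7 in control cells, and 293 ± 24.7 CPM at day 21 and 141 ± 4.68 CPM at day 7 in roxadustat cells. Igfbp3 averaged 89.1 ± 4.59 CPM at day 21 and 306 ± 13.9 CPM at day 7 in roxadustat cells. All 5 moved in opposite directions in the arms, each change being called. The differences of the other four were 5.52 for Cped1, -4.03 for Spns2, 5.49 for Igfbp3 and -6.62 for Slc6a18.

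By list, the change of epithelial genes was lower in control for 27 of 32 and higher for none (median log2 change -3.07 in control cells and 0.11 in roxadustat cells). The change of fibroblast genes was higher in control for 24 and lower for 2 of 29 (medians 1.63 and -0.32), and that of collagen chains higher for 21 and lower for 4 of 35 (medians 1.53 and 0.00). Of 40 mitosis genes 40 fell in control and 36 in roxadustat cells, and the change was lower in control for 39 (medians -2.12 and -0.56). The arms lay close at day 21 and far apart at day 7. The summed level at day 21 was 373 to 392 CPM in control and 355 to 362 CPM in roxadustat cells. At day 7 it was 1517 to 1547 CPM in control and 497 to 518 CPM in roxadustat cells. The change of interferon genes was higher in control for 31 of 38 and lower for none, or 29 and 1 with library size alone (medians 1.00 and -0.15), and that of lysosome genes higher for 28 of 33. Of respiratory chain genes 13 of 45 differed, 11 with the higher change in control, or 19 with the lower under library size alone, with medians of -0.44 and -0.58. Acta2 averaged 656 ± 36.1 CPM at day 21 and 1633 ± 23.3 CPM at day 7 in roxadustat cells, and the difference of 0.03 did not pass (adjusted p 0.92).

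**Figure D4:**
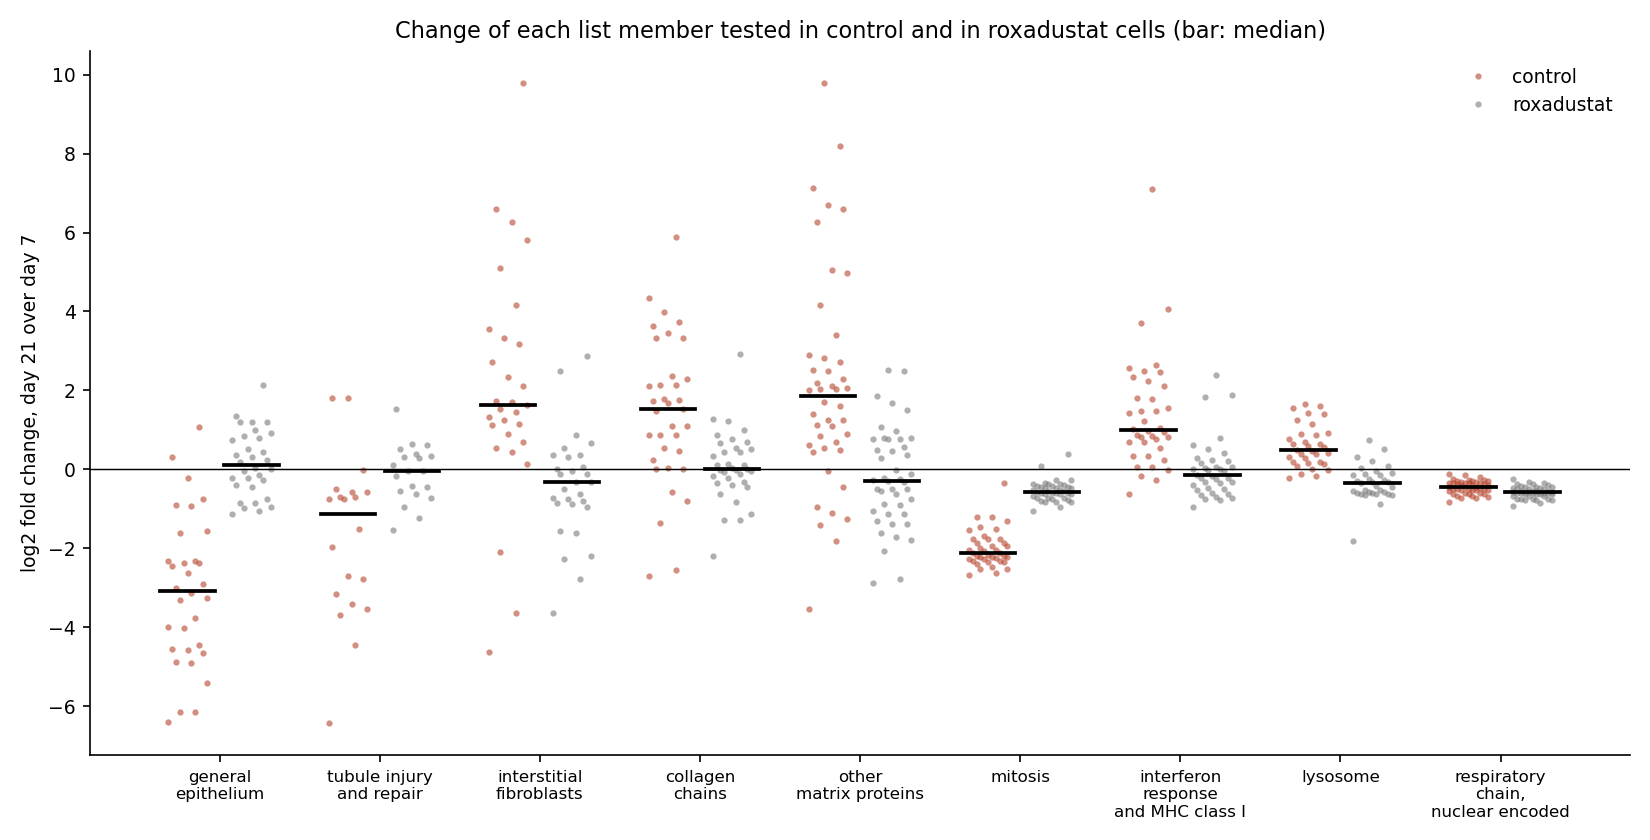
Log2 fold change, day 21 over day 7, of each tested member of 9 gene lists in control cells (left of each pair, red) and in roxadustat cells (right, grey), with the median as a bar. In control cells the medians run from -3.07 for general epithelium to 1.86 for other matrix proteins, and in roxadustat cells those of the same 9 lists lie between -0.58 and 0.11.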

How the data were processed

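RNA was measured in Sca-1 sorted mouse kidney cells by mRNA sequencing from total RNA with a kit that keeps no strand, per the labels' protocols. The authors deposited 1 table of counts per library, whole numbers of reads per gene. STAR 2.5.2a, featureCounts 1.5.0-p1, bcl2fastq and the mm10 build are named in the submitters' processing notes, and the annotation release is not given in the sources used here. Gene names and coordinates were matched by gene ID to GENCODE M21 (GRCm38), for 47224 of the 47729 IDs. An ID without a name was tested and not named.

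Groups came from the treatment and time labels. The main test was edgeR 4.0.16 (R 4.3.3): filterByExpr, trimmed mean of M values, and the robust quasi-likelihood test on a fit of all 20 libraries in 6 groups, with contrasts for control day 21 minus control day 7 and for that change minus the same change in roxadustat cells. Benjamini-Hochberg adjustment ran over the 18731 genes tested, with a threshold of 0.05. The SE of a log2 fold change is its size divided by the square root of the test's F. Depth of 13681573 to 17909440 counts sets the counting precision, and low genes are the least certain. The test was checked on simulated counts with known changes in a small share of genes, balanced up and down, in libraries drawn independently. That check does not cover changes in most genes or libraries in close pairs.

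The comparison, the 40 gene lists and the genes named were chosen with earlier results of these data known. Named genes are the 10 largest rises and falls among called genes of at least 10 CPM without overlap, up to 4 members of each list with the smallest p and members called against their list, the most abundant genes, the 5 smallest p of the difference, and Ly6a, Pdgfra, Pdgfrb, Nt5e, Epo, Thy1, Acta2 and Vim. Some were left out, and a few genes are not reported here. Isg15 was named after its values were seen, for its promoter, and so were the markers with no count. Promoter sequences are RefSeq's, found for 12402 tested genes. Alternatives were other scalings, filters on low counts, DESeq2 1.42.0, limma 3.58.1 with voom, a replicate block, and fits with libraries left out or summed. A fit of the 8 libraries with day 21 pairs summed was chosen after seeing the data.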

Additional observations from a re-analysis of the deposited data

Results flagged for a closer look

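In 16 of 352 sets of 4 control libraries examined (the 175 genes named with their values, and the total count, at each day) 1 library stood apart from the other 3 by Dixon's criterion. Chance alone marks about 1 in 20. At day 21 the libraries apart had 0.799 CPM for Ovol1, 5.97 CPM for Mcm5, 4.07 CPM for Stc2, 294 CPM for Sfrp1, 269 CPM for Ltbp1, 1.66 CPM for Erbb4, 13.8 CPM for Ccl6 and 1.86 CPM for Il11. At day 7 they had 0.268 CPM for Prelp, 55.3 CPM for Prc1, 17.1 CPM for E2f1, 24.2 CPM for Hmga1, 71.0 CPM for Flt1, 474 CPM for Grb10, 2.40 CPM for Meg3 and 0.054 CPM for Epyc, the last being its single count. The groups of both days overlapped for Ovol1 alone among these genes.

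The change over time differed between control and roxadustat cells for 8382 genes, by the test of the difference itself. For the genes named, the difference of log2 changes was 5.76 for Cemip, 5.52 for Cped1, 5.49 for Igfbp3, -4.03 for Spns2, -6.62 for Slc6a18, 1.82 for Nr4a1, 0.95 for Zfp36, -0.66 for Egr1 and -2.77 for Dusp6.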

How the results depend on the processing

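Of 3670 values of the 175 named genes under 21 alternatives, 3643 kept their direction and their side of the threshold, 20 lost the call, 5 gained one and 2 changed sign. The changes fell on Esrp2, Ovol1, Slc4a4, Tcf21 and Ly6a. Ly6a changed sign with library size alone (log2 fold change -0.073) and without day 21 replicates 1 and 2 (-0.0060), and passed the threshold without day 21 replicate 3, 4 or both, with a mean of at least 1 CPM as filter and with the 8 libraries alone. With 1 control library left out at a time, 6081 to 6380 genes were higher and 6086 to 6306 lower, and the difference from roxadustat cells, with 1 library of either arm left out, counted 4202 to 4438 higher and 3688 to 3828 lower. Other scalings, filters and tests gave 5063 to 6661 genes higher and 5615 to 8172 lower. Library size alone gave 2501 genes with a higher and 6504 with a lower change in control than in roxadustat cells, against 4463 and 3919. Without day 21 replicates 1 and 2 the counts were 6177 higher and 6111 lower, and without 3 and 4 they were 5534 and 5633. The 8 libraries alone with pairs summed, chosen after seeing the data, gave 5857 and 5785. With a replicate block 6405 genes were higher and 6401 lower (4445 and 3874 for the difference). The numbers pair nothing that the labels name: same-numbered libraries of both days correlated at -0.0019, 0.015, -0.056 and 0.14 in their deviations from the group means. Genes of few counts are limited by depth, and a gene at 0 has no fold.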
